A study of Schizosaccharomyces pombe with 21 samples.

Results

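Of 6988 genes counted in phosphate-starved fission yeast, 91 had mRNA levels that fell early and came back toward their starting level by 48 h. Members were chosen by their mean levels at 0, 4, 8 and 48 h. A gene was taken when its mean normalised count was at least 100 at 0 h, was at most 0.5 of the 0 h mean at both 4 h and 8 h, and was at least 0.6 of it at 48 h. IDs of noncoding RNAs and the 7 ribosomal stalk genes were left out, and no stalk gene met the rule. Of the 576 genes lowered early, 421 were still at or under 0.5 of 0 h at 48 h, 64 lay between the limits, and 91 are the group described here. The 4, 8 and 48 h means chose the members, so their fall and recovery are given as a description and without a test. By the names in the reference annotation, 24 members encode large ribosomal subunit proteins, 15 small subunit proteins, 27 ribosome assembly factors, 5 RNA polymerase I or III components, 5 tRNA processing or modification enzymes, 3 translation proteins and 6 metabolic enzymes. The other 6 fall outside these roles.

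Ribosome production is among the largest demands on the transcription of a growing yeast cell. Ribosomal protein mRNAs, which come from many duplicated genes, and the mRNAs of the factors that fold, cleave and modify ribosomal RNA are turned down when nutrients run short, under the control of nutrient-sensing kinases such as TOR. Most fission yeast ribosomal protein genes have no TATA box and carry instead a HomolD box close to the start of transcription, in some cases with a HomolE box upstream of it.

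All 21 samples were poly(A)+ RNA from 1 haploid strain, ASY136 (h- ecl1∆::hygMX ecl2∆::natMX ecl3∆::kanMX), in which drug-resistance cassettes replace the open reading frames of the paralogous genes ecl1, ecl2 and ecl3. Like all strains of the study, ASY136 also carries mutant alleles of leu1, ura4, his3 and ade6. Cultures grown at log phase in YES, a rich yeast extract medium, were the 0 h group, and the other 6 groups had then spent 4, 8, 12, 24, 36 or 48 h in ePMGT(-PO4), a phosphate-free synthetic medium based on glutamate. The labels give 3 biological replicates for each time. Every comparison with 0 h therefore holds the loss of phosphate together with the change from rich to defined medium, and no wild-type strain was among the samples. The study also moved wild-type cells from YES to this medium with phosphate. It reports that ribosome, tRNA and translation genes were not lowered there over 8 h as they are in starvation. A bulk library cannot tell fewer cells that hold an mRNA from less of it per cell, and the total mRNA per cell was not measured. The mean of ecl3 was at most 3.67 at any time, whereas ecl2 ranged from 1934 to 3191 and ecl1 from 1472 to 4095, so only ecl3 was near 0 in the libraries labelled as lacking all 3. Counted reads averaged about 21100000 to 25900000 per library at the 7 times. The deposited values are the authors' means of 3 libraries in normalised counts, which are scaled to library size but not to gene length, so levels are compared between times of a gene and not between genes. Individual libraries were searched for only at means from 20 to 1000, a range set in advance. Among genes with means of 300 to 1000, the median coefficient of variation over the 3 libraries was 5.98% to 7.65% at 6 of the times and 14.2% at 24 h, where its upper quartile was 21.3%. Higher means, including those of nearly all ribosomal protein members, were not searched, so their spread over libraries is not known. No test was run. Means for single genes are listed in the order of the 7 times, from 0 h to 48 h.

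The sequences upstream of a few ribosomal protein members show the element that nearly all of them share and the members that depart from it. The 7-base HomolD core CAGTCAC, on either strand, was in the promoter window (250 bases before to 50 after the annotated gene start, 300 in all) of 37 of the 39 ribosomal protein members (94.9%), and of 241 of 5110 protein-coding promoters (4.72%). Each sequence below is the 120 bases before the gene start, read on the gene's strand in RefSeq's ASM294v3 assembly, with the HomolD core and the HomolE core CCCTACCC in capitals on whichever strand they lie. The genes rps3001 (I:4890200-4890319, plus strand) and rpl29 (II:3172193-3172312, plus strand) are shown for 2 of the fullest recoveries and rpl3002 (I:5095880-5095999, minus strand) for the deepest fall. The gene rps29 (II:516308-516427, plus strand) carries both elements. The member rpl31 (I:5017987-5018106, plus strand) has HomolE and no exact HomolD core, only the near match ccgtcac. The copies rpl3602 (II:3153368-3153487, plus strand), a member with both elements, and rpl3601 (III:506890-507009, minus strand), which is not a member, form a pair. An exact match to either core is absent from rpl3601, but it holds the near matches gtgaccg and ggttaggg. Most ribosomal protein genes lowered early that are not members do hold the HomolD core (85 of 93, 91.4%). Near matches were not counted.
rps3001: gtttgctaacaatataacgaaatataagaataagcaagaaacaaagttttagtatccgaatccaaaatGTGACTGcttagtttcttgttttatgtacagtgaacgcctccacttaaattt
rpl29: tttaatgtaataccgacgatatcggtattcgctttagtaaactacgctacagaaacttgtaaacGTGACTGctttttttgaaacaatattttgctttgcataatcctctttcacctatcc
rpl3002: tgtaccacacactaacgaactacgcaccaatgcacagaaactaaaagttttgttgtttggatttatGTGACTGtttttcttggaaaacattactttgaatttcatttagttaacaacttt
rps29: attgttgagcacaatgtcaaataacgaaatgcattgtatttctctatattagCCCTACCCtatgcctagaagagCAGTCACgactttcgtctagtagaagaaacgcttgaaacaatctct
rpl31: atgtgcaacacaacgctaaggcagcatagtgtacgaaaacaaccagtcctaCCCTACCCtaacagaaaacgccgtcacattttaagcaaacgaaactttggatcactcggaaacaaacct
rpl3602: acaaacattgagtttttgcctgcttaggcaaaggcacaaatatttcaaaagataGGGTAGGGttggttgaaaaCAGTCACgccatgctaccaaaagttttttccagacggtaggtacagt
rpl3601: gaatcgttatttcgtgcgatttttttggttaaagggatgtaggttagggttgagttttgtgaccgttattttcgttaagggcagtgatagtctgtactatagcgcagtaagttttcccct

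Across the 91 members the median level was 30.9% of 0 h at 4 h, 37.2% at 8 h, 45.1% at 12 h, 58.9% at 24 h, 63.1% at 36 h and 73.2% at 48 h. The median over 4799 protein-coding genes with a 0 h mean of at least 100 was 95.8%, 86.1%, 87.0%, 84.7%, 87.5% and 83.3% at the same times, a shift of -0.06 to -0.26 on the log2 scale. The 39 ribosomal protein members stood lower than the 52 others early on, with medians of 21.1% and 19.7% at 4 and 8 h against 37.3% and 41.3%. By 48 h their medians were 76.5% and 72.1%. The members' mRNAs made up 5.87% of all normalised counts at 0 h, 1.78% at 4 h, 2.06% at 8 h, 2.83% at 12 h, 4.30% at 24 h, 3.95% at 36 h and 5.87% at 48 h. The 48 h mean was at or above the 0 h mean for 14 members, of which 11 encode ribosomal proteins, and at least 80% of it for 32. Under the other scalings described next, 16 of these 39 ribosomal protein members and 9 to 11 of these 52 others were at or above it.

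**Figure D1:**
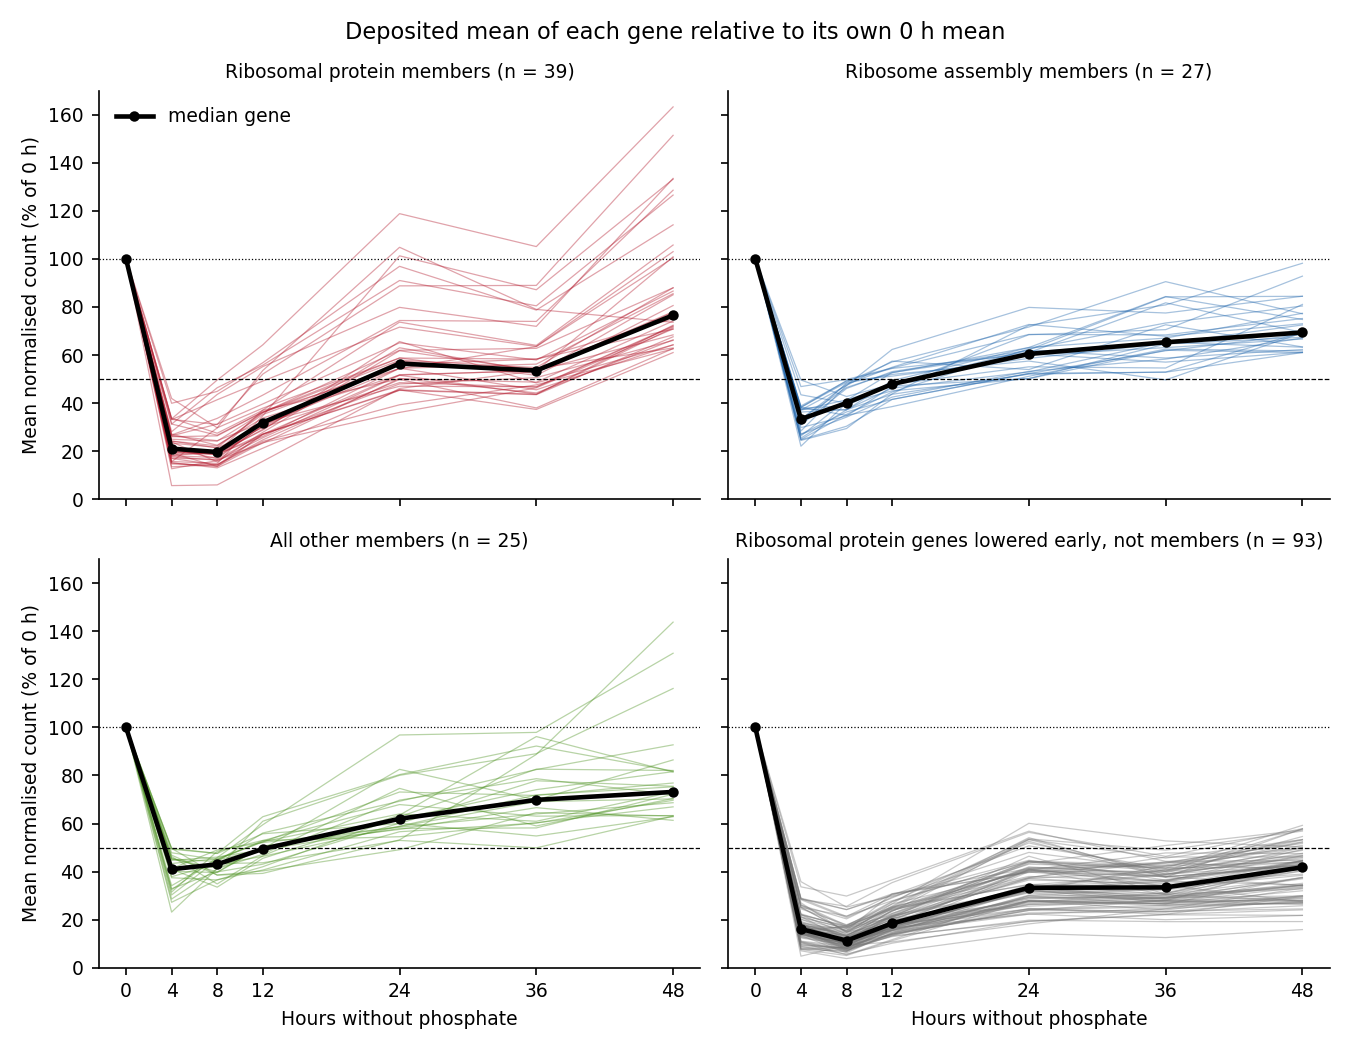
Mean normalised count of each gene as a percentage of its own 0 h mean (vertical axis) against hours without phosphate (horizontal axis), with 1 thin line per gene and the median gene in black. Dashed and dotted lines mark 50% and 100%. Ribosomal protein members (n = 39) sank to a median of 19.7% at 8 h and stood at 76.5% at 48 h, assembly members (n = 27) went from 33.3% at 4 h to 69.4%, and the ribosomal protein genes lowered early that are not members (n = 93) reached 41.8%.

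The choice of scaling bears on which genes are members. With each time recentred on the median protein-coding gene, 106 genes met the rule, among them 35 of the 39 ribosomal protein members and 27 of the 52 others. With summed protein-coding counts made equal, 82 met it, including 34 of the 39 and 10 of the 52. Membership of the genes that do not encode ribosomal proteins, whose falls were shallower, therefore rests more on the scaling used.

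Large subunit members stood at a median of 19.5% of 0 h at 4 h and 72.8% at 48 h (24 genes). The member with the most counts at 0 h was rpl1001, which encodes the protein uL16 that joins late in subunit maturation, with means of 69735, 29243, 20741, 26429, 40967, 40672 and 49327. At 4 h it was at 41.9% of 0 h, the highest 4 h level among large subunit members. The gene rpl3401 had means of 64553, 12429, 8809, 15220.4, 23319.9, 29912 and 45736, and its mean was higher at each time after 8 h than at the one before. For rpl26 the means were 60950.0, 16519, 13709, 20599, 31472, 32635 and 46638. All 3 of these abundant mRNAs ended between 70.7% and 76.5% of 0 h.

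The fullest recoveries among large subunit members belonged to genes of small proteins. The copies rpl4102 and rpl4101 both encode eL41, a very short peptide at the face between the subunits. Means of rpl4102 were 12504, 3514, 5452, 6900.0, 9981, 8993 and 16684. Means of rpl4101 were 30713, 12261, 13780.3, 17444, 29755, 24167 and 35053, so both copies were above their 0 h level at 48 h and below it at every earlier time. The gene rpl29 had means of 34789.5, 9309, 11708, 15071, 25867, 25734 and 44719 and ended at 129% of 0 h. For rpl3602 the means were 18345, 2885, 2736, 6371, 18574, 15985 and 24419, which is 34.7% of 0 h at 12 h, 101% at 24 h and 133% at 48 h.

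The lowest relative level of any member was that of rpl3002, a copy of the gene for eL30, with means of 5215, 297, 312, 824, 2403, 2788 and 3566. It kept 5.69% of its 0 h level at 4 h and stood at 68.4% at 48 h, and its 36 h mean was 3.38 times its 12 h mean, the largest such fold among the members. Next in depth among large subunit members were rpl3202, rpl3801 and rpl2501, whose lowest levels lay between 13.1% and 13.6% of 0 h and which ended between 61.0% and 66.1%. The means of rpl3202 were 38157, 5812, 4990.4, 8106, 17356, 14259 and 23284. Those of rpl3801 were 17660.0, 2387, 2551, 4363, 8801, 6710.1 and 11071. Those of rpl2501, the gene for the protein uL23 beside the exit of the peptide tunnel, were 46903, 7061, 6389.8, 12600.4, 22493, 23727 and 30994. The gene rpl102 was the only ribosomal protein member with a lower mean at 48 h than at 36 h, having peaked at 24 h at 105% of 0 h, and its means were 11196, 1749.8, 3323, 5996, 11734, 8842 and 8242.

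Small subunit members were at a median of 24.2% of 0 h at 4 h, 22.2% at 8 h and 85.5% at 48 h (15 genes). The gene with the most counts at 0 h was ubi3, which encodes ubiquitin fused to the protein eS31, with means of 58903, 19869, 16186, 21805, 29515, 28693 and 43681. Next came rps21, with means of 53822, 13435, 13019, 19367, 31129.5, 29489 and 47341. The gene rps1802, for the protein uS13 of the subunit's head, had means of 47495, 8063, 6798, 11441, 18671, 22598 and 29709, and like rpl3401 it was higher at each time after 8 h than at the one before.

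Of all 91 members, rps3001 ended highest relative to its start. It encodes eS30, which animals make as a fusion with a ubiquitin-like domain. Its means were 21633, 7235, 10729.5, 13892, 25697, 22735 and 35301, or 163% of 0 h at 48 h, and it was above its 0 h level from 24 h on. The gene rps2502 followed at 151%, with means of 42920.4, 14266, 13347, 22345, 38094, 38177 and 64964. Its other copy, rps2501, was the deepest small subunit member, at 12.7% of 0 h at 4 h and 72.4% at 48 h, and had means of 17849.9, 2268, 2870.3, 4565, 9205, 7802 and 12922. The gene rps29 encodes uS14, a small zinc-binding protein, and stood at 127% at 48 h, with means of 21487, 6721, 9968, 11986, 19550.2, 17287 and 27185. Its neighbour on chromosome II, rps27, formed with it the only pair of members next to each other among protein-coding genes, and had means of 39015, 12921, 16149.8, 19182, 27934, 24800.3 and 40175.

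By their means, the ribosomal protein members did not climb evenly. All 39 had a higher mean at 12 h than at 8 h and at 24 h than at 12 h, as did all 93 ribosomal protein genes lowered early that are not members, against 57.7% and 50.3% of the 4807 genes with a 0 h mean of at least 100. A lower mean at 36 h than at 24 h was seen in 28 of 39 members, 56 of those 93 and 42.5% of all 4807. A higher mean at 48 h than at 36 h was seen in 38 of 39, 83 of 93 and 38% of them. The uneven course of the means was therefore shared by the ribosomal protein genes outside the group. All these genes were read from the same libraries at each time, so the counts are not separate observations. Among the genes whose spread is given above, the median coefficient of variation was 14.2% at 24 h. At the other times it was 5.98% to 7.65%. For nearly all ribosomal protein genes the spread is not known, so the step from 24 h to 36 h was not tested. From 12 h to 24 h, 34 of 39 were at least 1.5-fold higher, as were 78 of the 93, against 4.33% of the 4807 genes. From 12 h to 36 h the counts at that fold were 30 of 39 and 68 of 93, against 6.89%. With equal summed counts, those to 36 h were 16 of 39, 45 of 93 and 154 of 4807 genes, and those to 24 h 29, 67 and 149. When recentred, they were 30, 67 and 322 to 36 h and 36, 83 and 238 to 24 h. The rule requires a rise between 8 h and 48 h, so nothing about the members is read from these counts. No member was at least 1.5-fold lower at 36 h than at 24 h, against 2.1% of genes, and the median fold from 24 h to 36 h was 0.947. From 36 h to 48 h the median fold was 1.53 for the members and 1.17 for the 93 ribosomal protein genes that are not members. Because the rule used the 48 h mean, that last contrast is a description. Under both other scalings all 39 again had higher means at 24 h than at 12 h, 38 had higher means at 48 h than at 36 h, and the lower mean at 36 h than at 24 h was seen in 32 when recentred (63 of the 93 and 50.3% of all genes) and 35 with equal summed counts (70 of the 93 and 58.2%). The lowest point was at 8 h for 26 of the 39 as deposited, but for 10 when recentred and 7 with equal summed counts, so no order of 4 h and 8 h is read.

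The 2 times that the rule did not use and that lie latest, 24 h and 36 h, show how the members stood against the other ribosomal protein genes. At 24 h the members ranged from 36.1% to 119% of 0 h with a median of 56.4%, and the 93 lowered early that are not members ranged from 14.3% to 60.1% with a median of 33.3%. At 36 h the ranges were 37.4% to 105% and 12.6% to 52.8%, with medians of 53.5% and 33.4%. The 3 ribosomal protein genes not lowered early, rpl35A02, rpl4302 and rps3002, were at 73.0%, 109% and 106% at 24 h. The sets overlapped at both times. They share the 0 h libraries that set every ratio, so the 24 h and 36 h values are not independent of the rule. Members took 23.3% of all ribosomal protein counts at 0 h, 28.0% at 4 h, 34.2% at 8 h, between 33.1% and 33.5% from 12 h to 36 h, and 38.9% at 48 h, a share within each time that does not depend on the scaling.

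Ribosome assembly members followed a flatter course, from a median of 33.3% of 0 h at 4 h through 40.03%, 47.9%, 60.4% and 65.3% to 69.4% at 48 h (27 genes). None reached its 0 h mean by 48 h as deposited (4 did under either other scaling). The roles given are those known for the budding yeast counterparts. The member with the most counts at 0 h was snu13, an RNA-binding protein of the box C/D small nucleolar particle, with means of 19269.9, 5978, 9315, 10005, 11078, 9569 and 13341. It was the only one of the 91 members with a lower mean at 36 h than at 12 h. The gene rlp7, a factor of early large subunit assembly, came closest of the 27 to its starting level (98.2%), with means of 7531, 1844, 2217, 3300.4, 5449.9, 6089 and 7393. The export adaptor of the large subunit, nmd3, had means of 6238, 2388, 3035, 3562, 4469.7, 5646 and 4812, and peaked at 36 h at 90.5% of 0 h.

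Further along large subunit maturation, mdn1 encodes the giant AAA ATPase midasin, which pulls assembly factors off the particle, and had means of 5489, 2724, 2346, 2630.3, 3412, 4620.3 and 4634. The ATPase gene rix7 had means of 2111, 783, 998, 1213, 1139, 1532 and 1338, and was the only member with a lower mean at 24 h than at 12 h. The other 22 factors included parts of the U3 particle that processes small subunit RNA (utp5, utp11, utp18, nop14, lcp5), RNA helicases (dbp7, mak5, spb4, ddx27), and nop10 of the pseudouridylating particle, and stood between 61.0% and 92.8% of 0 h at 48 h. Mean counts of assembly members were higher at 24 h than at 12 h in 26 of 27 and lower at 36 h than at 24 h in 7 of 27, next to 42.5% of all genes and 167 of the 392 other genes lowered early that neither are members nor encode ribosomal proteins. The count was 10 of 27 when recentred and 12 of 27 with equal summed counts. Of the 52 members that are not ribosomal proteins, 4 were at least 1.5-fold higher at 24 h than at 12 h (7.69%, against 4.33% of all genes).

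The RNA polymerase members were rpa43 and ker1, subunits of RNA polymerase I, rrn3, the factor that brings that polymerase to ribosomal DNA, and rpc11 and rpc31, subunits of RNA polymerase III. Means of rpa43 were 4206, 1203, 1734, 1985, 3138, 2482 and 2961. Means of rrn3 were 3821, 1159, 1712, 1890.1, 3154, 2669 and 3304. Those of ker1 were 3358, 915, 1229, 1366, 1900.3, 2022 and 2339.7. The 3 RNA polymerase I genes stood between 27.3% and 30.3% of 0 h at 4 h. Means were higher at 24 h than at 36 h for rrn3, rpa43 and rpc31, as for most ribosomal protein members, but not for ker1 or rpc11. The gene rpc11, whose protein helps the polymerase cleave its transcript and end transcription, had means of 1786, 414, 736, 1089, 1430.2, 1591 and 2075 and was above its 0 h level at 48 h (116%). The gene rpc31 had means of 1824, 791, 829, 957, 1167, 1112 and 1334.

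The tRNA members modify or trim tRNA. The gene trm44 encodes a methyltransferase for uridines of tRNA and had means of 6573, 3146, 2955, 3478, 4463, 4146 and 4162. For trm10, a guanosine methyltransferase, the means were 1751, 782, 807, 860.4, 1015, 1019 and 1265. Both stayed near the early limit, at 47.9% and 44.7% of 0 h at 4 h. Protein subunits of ribonuclease P, which trims the 5′ end of tRNA precursors, are encoded by rpr2 and pop5. Means of rpr2 were 511, 161, 248, 271, 279, 308 and 342. Those of pop5, whose protein also serves in ribonuclease MRP of ribosomal RNA processing, were 1585, 715, 701, 889, 1098, 1307 and 1469.7, and it ended at 92.7%.

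Of the translation members, tma19, the homologue of the translationally controlled tumour protein, had means of 48833, 15866, 22392, 29053, 47286, 47813 and 63886, which reached 131% of 0 h at 48 h. The gene tef102, a copy for elongation factor EF1α, had means of 32006, 14808, 11167, 14917, 22323, 25173 and 23059. An enzyme of the diphthamide modification of elongation factor EF2 is encoded by dph2, with means of 2067, 706, 932, 1082, 1511, 1481 and 1589. The latter pair ended at 72.0% and 76.9%.

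The metabolic members were spread over pathways and lay between 61.3% and 82.1% of 0 h at 48 h. The gene gua2, for GMP synthase, had means of 25302, 10161, 10027, 12825, 14566, 16855 and 15518. Another purine gene, hpt1, encodes a salvage phosphoribosyltransferase, with means of 5775, 2848, 2749, 3629, 4641, 5327 and 4726. Means of dre2, an iron-sulphur cluster assembly protein, were 4351, 1752, 1873, 2017, 2561, 3129.7 and 3276. The uroporphyrin methyltransferase gene met1, which serves the siroheme cofactor of sulphite reduction, had means of 3144, 1178, 1149, 1322, 1975, 2597 and 2580.0. For lys7, which activates a reductase of lysine synthesis, they were 624, 206, 249, 269, 376, 342 and 392. The gene SPBC1347.09, a methyltransferase of ubiquinone synthesis, had means of 2546, 1162, 1015, 1284, 1496, 1759.5 and 1789. In 3 of these 6 (gua2, hpt1 and met1) the 36 h mean was the highest after 0 h.

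Outside these roles stood 6 genes. The gene sak1 encodes an RFX-family transcription factor and had means of 7289, 3304, 3015, 3587, 4518, 5401 and 5947. Means of hsk1, the Cdc7-like kinase that fires replication origins, were 1454, 681, 561, 586, 714, 939 and 918. Those of pby1 were 1842, 698, 798, 805, 976, 919 and 1162. The gene rng3, whose UCS-domain protein folds myosin for the contractile ring, had means of 1324, 658, 511, 520.1, 705, 1175 and 1904. It was still at 39.3% of 0 h at 12 h and was at 88.8% at 36 h and 144% at 48 h. For cif1, named as a calnexin independence factor, the means were 1253, 517, 614, 653, 733, 802 and 861. The uncharacterised SPAC959.06c had the lowest counts of any member, with means of 260.2, 107, 87.3, 119, 165, 250.3 and 212.

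Library values could be rebuilt for every member with a mean under 1000, which gave 3 members at 0 h, 28 at 4 h, 24 at 8 h, 17 at 12 h, 10 at 24 h, 8 at 36 h and 6 at 48 h. The rebuilt libraries of a time cannot be tied to replicate numbers. For SPAC959.06c the 3 libraries held 207, 269 and 305 normalised counts (0 h), 98.7, 107 and 115 (4 h), 70.7, 90.4 and 101 (8 h), 114, 115 and 126 (12 h), 151, 168 and 177 (24 h), 198, 268 and 284 (36 h), and 197, 213 and 226 (48 h). Its 8 h and 12 h libraries did not overlap, and its 36 h and 48 h libraries overlapped those of 0 h. For rpr2 they held 487, 511 and 537 (0 h), 145, 165 and 173 (4 h), 236, 240.1 and 267 (8 h), 228, 283 and 302 (12 h), 253, 273 and 311 (24 h), 295, 304 and 326 (36 h), and 299.98, 352 and 376 (48 h). The 12 h and 24 h libraries of rpr2 overlapped, and none of its starved libraries reached the lowest at 0 h. For lys7 the values were 592, 605 and 676 (0 h), 187, 210.4 and 219.6 (4 h), 231, 242 and 274 (8 h), 262, 271 and 274 (12 h), 299, 349 and 479 (24 h), 321, 341 and 365.1 (36 h), and 370.1, 383 and 424 (48 h). Its 24 h libraries were the most scattered of the 7 times and overlapped those of 36 h and 48 h.

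In hsk1 the libraries held 509, 561 and 614 (8 h), 549, 558 and 651 (12 h), 684, 689 and 769 (24 h), and 851, 972 and 993 (36 h). Those of 36 h lay above all those of 24 h, and those of 8 h and 12 h overlapped. In rng3 they held 620.0, 648 and 706 (4 h), 452, 492 and 588 (8 h), 456, 551 and 554 (12 h), and 621, 677 and 815 (24 h), so that every 24 h library lay above every 12 h library. In rpl3002 they held 264, 305 and 321 (4 h), 253, 303 and 380.1 (8 h), and 682, 706 and 1084 (12 h). The 4 h and 8 h libraries of rpl3002 overlapped, and the 12 h libraries all lay above both.

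**Figure D2:**
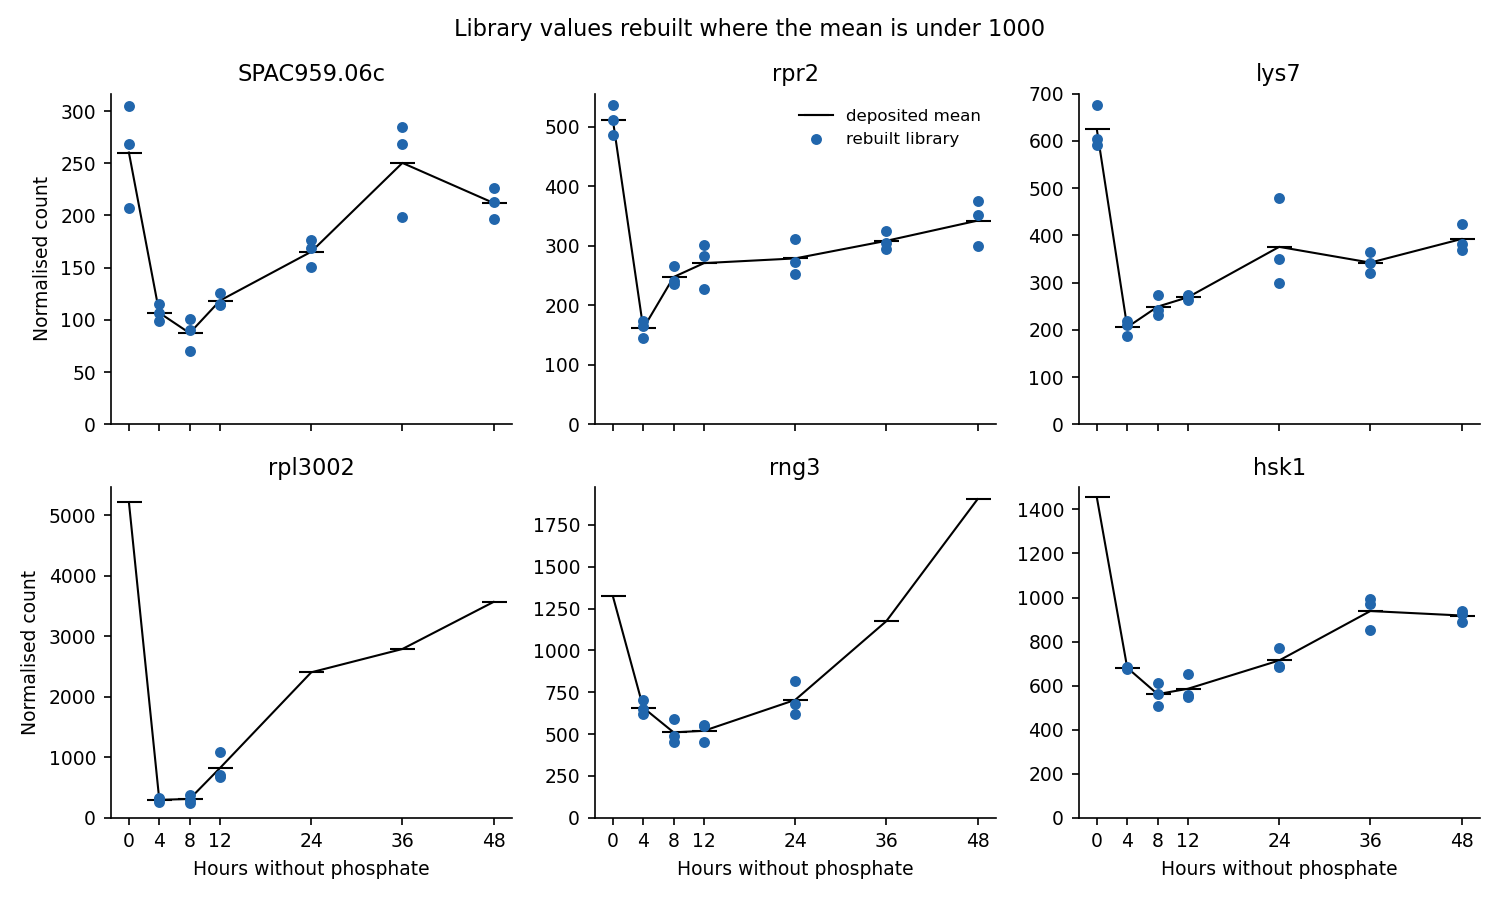
Normalised counts (vertical axis) against hours without phosphate (horizontal axis) for 6 members, with the deposited mean as a line and dash and the 3 rebuilt libraries of a time as points where the mean was under 1000. The 12 h points of rpl3002 lie at 682, 706 and 1084, and the 24 h points of lys7 spread from 299 to 479.

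The ribosomal protein members were mostly short genes. Of 132 ribosomal protein genes lowered early, members were 17 of the 19 with up to 300 coding bases, 15 of 31 from there to 420 bases, 4 of 25 up to 480 bases, 1 of 23 up to 600 bases and 2 of 34 longer ones (rpl1001 and rpl102). The median 48 h level in these bins was 101%, 57.9%, 44.5%, 42.7% and 33.9% of 0 h. Spearman's rho between coding length and the level relative to 0 h, over these 132 genes, was -0.22 at 4 h, -0.48 at 8 h, -0.52 at 12 h, -0.57 at 24 h, -0.53 at 36 h and -0.66 at 48 h. These coefficients describe genes that share the same libraries, they do not depend on the scaling, and the bins were chosen after the values were seen.

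The relation with length was not confined to ribosomal protein genes. Over 4657 other protein-coding genes rho was -0.10, -0.29, -0.28, -0.32, -0.23 and -0.33 at the same times, and the median 48 h level went from 185% of 0 h in genes with up to 300 coding bases to 64.5% in those with over 2000. Libraries of 1 time also differed from each other along length: over the 7 times the rho between coding length and a library's deviation from the mean of its time, over genes with means of 300 to 1000, ran from -0.39 to 0.38. The part that library preparation, RNA quality or length itself plays in the members' levels was not tested. Among the 52 members that do not encode ribosomal proteins, rho at 48 h was -0.22 and the coding lengths ran from 195 bases (nop10) to 14154 (mdn1).

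**Figure D3:**
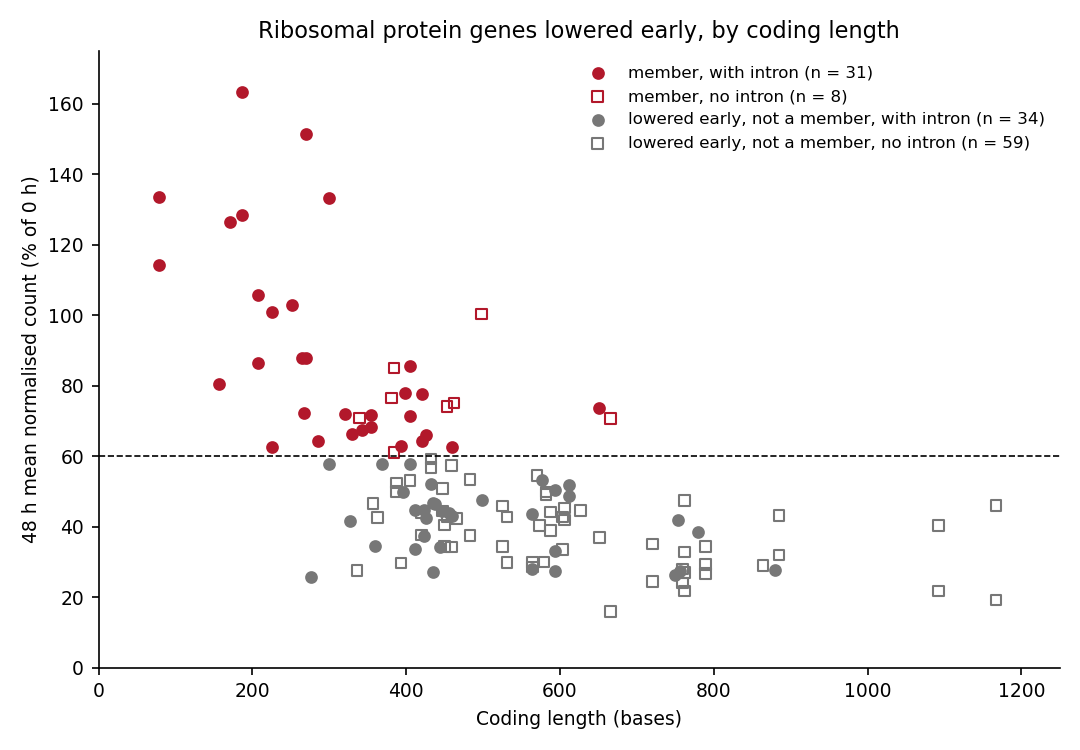
Level at 48 h as a percentage of 0 h (vertical axis) against coding length in bases (horizontal axis) for the 132 ribosomal protein genes lowered early, with members in red and introns marked by filled circles. The dashed line is the limit of 60% that defines members. Genes with up to 300 coding bases have a median of 101%, those with over 600 a median of 33.9%.

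Introns also differed between the sets. They were annotated in 31 of 39 ribosomal protein members and in 34 of 93 that are not members. Among genes with up to 420 coding bases, 28 of 37 with an intron were members (median 72.1% of 0 h at 48 h), as were 4 of 13 without one (50.1%). Among longer genes, 3 of 28 with and 4 of 54 without an intron were members. The 7 longer members were rpl1001, rpl102, rpl1201, rpl2501, rps1501, rps1802 and ubi3. This split, too, was made after the values were seen.

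Duplicated genes allow a comparison at almost equal coding length. Annotated mRNA lengths were close in some pairs (782 bases for rpl102, 783 for rpl101) and apart in others (455 for rpl3401, 870 for rpl3402). Of the 39 ribosomal protein members, 30 have another gene for the same protein and 9 do not. They fall into 22 families, of which 8 (rpl23, rpl30, rpl32, rpl38, rpl41, rps24, rps25 and rps28) have every copy among the members and 14 have not. In 13 of those 14 families the member ended higher than the other copy. In 12 of the 13 the other copy was lowered early, so the rule itself fixes that direction.

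Among those 14, the widest gap in percent of 0 h at 48 h lay in rpl36, where the member rpl3602 stood at 133% of 0 h and rpl3601 at 57.8%. Means of rpl3601 were 29019.8, 4575, 4969, 7187, 15271, 10941 and 16783. At 0 h rpl3601 gave the larger share of the pair's counts (61.3%), and at 48 h rpl3602 did (59.3%). Both had the same depth early, at 15.7% and 15.8% of 0 h at 4 h, so this pair differed in its recovery. In the rpl10 family rpl1001 stood at 70.7% at 48 h and rpl1002 at 15.9%. Means of rpl1002 were 33274, 2359, 1281, 2234, 4768, 4189 and 5293, and the member's share of the family's counts went from 67.7% at 0 h to 90.3% at 48 h. Here the copies were already apart at 4 h, at 41.9% for rpl1001 and 7.09% for rpl1002.

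Large gaps were also seen in rpl1, rpl37 and rpl34. In rpl1, rpl102 ended at 73.6% and rpl101, which gave 87.5% of the family's counts at 0 h, at 37.0%, with means of 78468, 12501, 7793, 12981, 23039, 22963 and 29056. In rpl37, rpl3703 ended at 87.9% with means of 23850.0, 5575, 5139, 8598, 14778, 14971 and 20974. Its copy rpl3702 ended at 25.8%, with means of 15749.5, 1442, 1293, 2421, 3599, 3658 and 4067. In rpl34, rpl3401 ended at 70.8% and rpl3402 at 27.7%, with means of 9625, 1670.3, 1596, 2003, 2468, 2705 and 2663. The members of rpl1 and rpl34 differed in their part of the family, since rpl102 was the minor copy at 0 h and rpl3401 the major one.

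The member was also the copy that ended higher in 7 further families, and in each it was the higher copy, relative to 0 h, at 8 h as well. The member rpl1201 was at 100.4% at 48 h, with means of 3081, 964, 821, 1121, 1674, 1957 and 3093. Its copy rpl1202 was at 47.6%, with means of 10292, 813, 878, 2042, 4209, 3954 and 4900.1. Their coding sequences are 99.6% identical, so many reads may not tell them apart and their values are uncertain. The pair rpl1001 and rpl1002, at 97.9% identity, carries the same doubt. Identity was next highest in rps18 (93.5%), the ubiquitin-eS31 fusion (93.2%), rps22 (92.4%) and rpl37 (90.2%). The part that shared reads play in those pairs was not tested. In rpl25, rpl2501 stood at 66.1% and rpl2502 at 42.4%, with means of 19648, 2504, 1882, 3354, 6352, 6570.1 and 8326.

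For small subunit proteins, rps1501 stood at 75.1% at 48 h, with means of 43106, 10437, 9573, 15198, 24181, 25126 and 32356. Its copy rps1502 stood at 42.4%, with means of 43317, 4546, 2350.0, 5079.7, 13000.4, 13047 and 18381, although both began with nearly the same counts. In rps18, rps1802 was at 62.6% and rps1801 at 43.2%, with means of 21343, 3871, 2139, 3375, 5809, 6658 and 9211. These pairs differ in coding length by at most 3 bases.

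The member rps2202 was at 62.9%, with means of 13485, 2713, 2526, 4067, 7612, 7333 and 8487, and has an intron. Its copy rps2201, which has none, was at 29.7%, with means of 36605, 3269, 2102, 3751, 7116, 8158 and 10864. In rpl1 too the member rpl102 has an intron and rpl101 has none. The rpl12 pair goes the other way, since the member rpl1201 has none and rpl1202 has an intron. Of the genes for the ubiquitin-eS31 fusion, ubi3 was at 74.2% and ubi5 at 43.0%, with means of 33748, 8464, 5144, 7219, 10846, 9435 and 14513. The member rps2202 was the minor copy at 0 h, at 26.9% of its family's counts, and stood at 43.9% at 48 h. In rpl12 the copy that is not a member, rpl1202, went from 77.0% of the pair's counts to 61.3%.

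In 2 families the copy that is not a member was not lowered early and ended higher than or close to the member. The gene rpl4302 was at 50.2% of 0 h at 8 h and 115% at 48 h, with means of 23548, 9551, 11832, 14098, 25574, 18329 and 27099. Its member copy rpl4301 ended at 64.2%, with means of 43362, 8217, 8178, 11325, 23637, 19748 and 27855. For rps3002 the 8 h and 48 h levels were 56.4% and 159%, next to 163% for rps3001, and its means were 17639, 6996, 9952, 11650.0, 18749.9, 17952 and 27980.4.

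Families whose copies are all members held gaps as well. In rps25, rps2502 ended at 151% and rps2501 at 72.4%. In rpl38, rpl3802 ended at 101%, with means of 14509.7, 2131, 2058, 3926, 7518, 7749 and 14630.4, and rpl3801 at 62.7%. In rpl23, rpl2301 ended at 64.2%, with means of 24255, 4705, 4691, 6976, 15909, 11736 and 15578. The copy rpl2302 ended at 77.7%, with means of 36229, 7128, 6774, 10542, 22829, 19284 and 28147. In rpl32, rpl3201 ended at 85.0%, with means of 35477, 6417, 6169, 10869.5, 20414, 18589 and 30169.7, and rpl3202 at 61.0%. At 8 h the copies of rpl38 had stood at 14.2% and 14.4% of 0 h and those of rpl23 at 18.7% and 19.3%, so the copies of these pairs parted later than 8 h.

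In rps24, rps2401 ended at 85.5%, with means of 27060.3, 5699, 4567, 8368, 14745, 15210.4 and 23139.6. The copy rps2402 ended at 71.3%, with means of 44474, 7625, 7361, 12062, 20266, 19418 and 31730.2. In rps28, rps2801 ended at 86.6%, with means of 15139, 3998, 4729.8, 6002, 9849.9, 8770.5 and 13108, and rps2802 at 106%, with means of 17539, 3195, 3448, 6506, 12923, 11227 and 18547. In rpl30, whose copies are 65.5% identical in coding sequence, rpl3002 gave 11.0% of the pair's counts at 0 h, 4.35% at 8 h, 10.2% at 24 h, 13.0% at 36 h and 11.3% at 48 h. Its copy rpl3001 had means of 42266, 7489.7, 6858, 9862, 21246, 18695 and 28033.

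**Figure D4:**
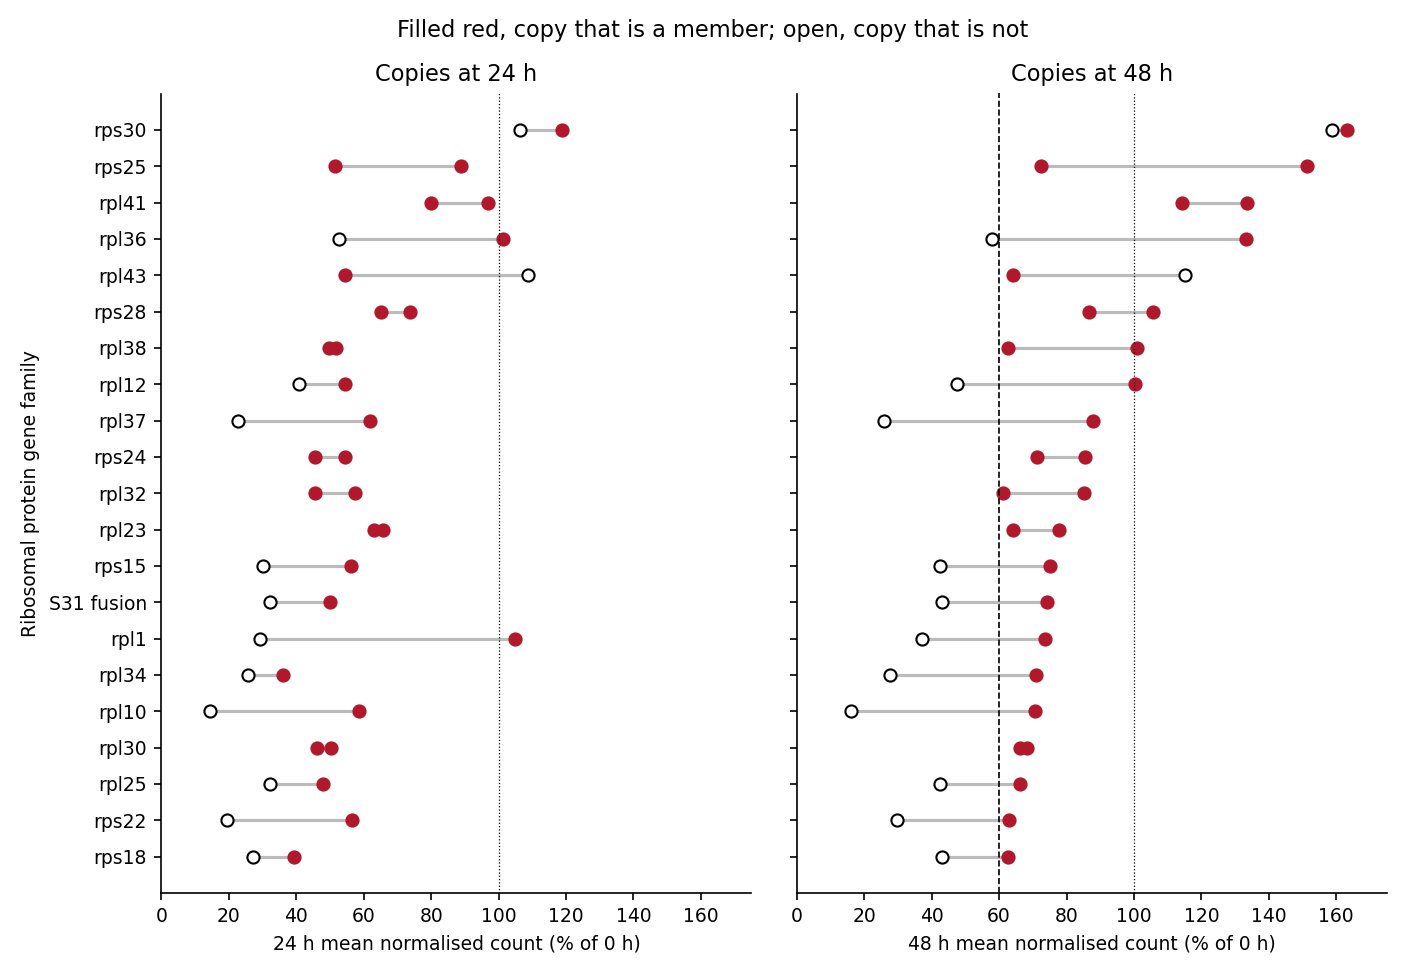
Level of each copy at 24 h (left) and 48 h (right) as a percentage of its 0 h mean (horizontal axes) in 21 of the 22 ribosomal protein gene families with several copies and a member (vertical axis). Filled red points are members, open points the other copies, and the dashed line is the limit of 60%. At 48 h the copies of rpl36 stand at 133% and 57.8%, those of rpl10 at 70.7% and 15.9%.

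The 9 ribosomal protein members without a second copy stood between 67.6% and 129% of 0 h at 48 h, and of these rpl26, rpl29, rps21, rps27 and rps29 are described above. Means of rpl22 were 50464, 12214, 10788, 15065, 24489, 23545 and 36215. Those of rpl31 were 48065, 9781, 8945, 13029, 21773, 20915 and 32483. The gene rpl39, for a very small basic protein, had means of 29783, 7748, 7860.4, 10794, 17507, 15347 and 23995. For rpl42 they were 52497, 13845, 12801, 16759.5, 24679, 24576 and 37836.

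Promoter elements were common to members and to other ribosomal protein genes. The HomolD core lay in 85 of the 93 that are not members (91.4%), close to the share of members, and in 4 of the 52 members that encode other proteins. The longer form CAGTCACG was in 11 of 39 members, 18 of 93 others and 1.23% of all promoters. The shorter core was chosen after the longer form had been counted. In the 37 members the core started 45 to 67 bases before the gene start (median 50), on the gene's own strand in 23 and on the other in 14, and in the 85 others the median was 51. Outside ribosomal protein genes, 40 of 4968 promoters (0.805%) held it at 45 to 67 bases. The 2 members without an exact match to it were rpl31 and rpl2501, each with a HomolE core, and rpl39 held 2 copies. HomolE was in 11 of 39 members, 35 of 93 others and 1.59% of all promoters, and its start lay 63 to 75 bases upstream in members. The PAC core CGATGAG, known from budding yeast ribosome assembly genes, was in 0 of the 27 assembly members (0 of 91 members) and 1.49% of promoters, and the MluI box ACGCGT of cell cycle genes was in 4 of 91 members and 3.25% of promoters. A match is given as letters in a window and was not tested as a site.

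**Figure D5:**
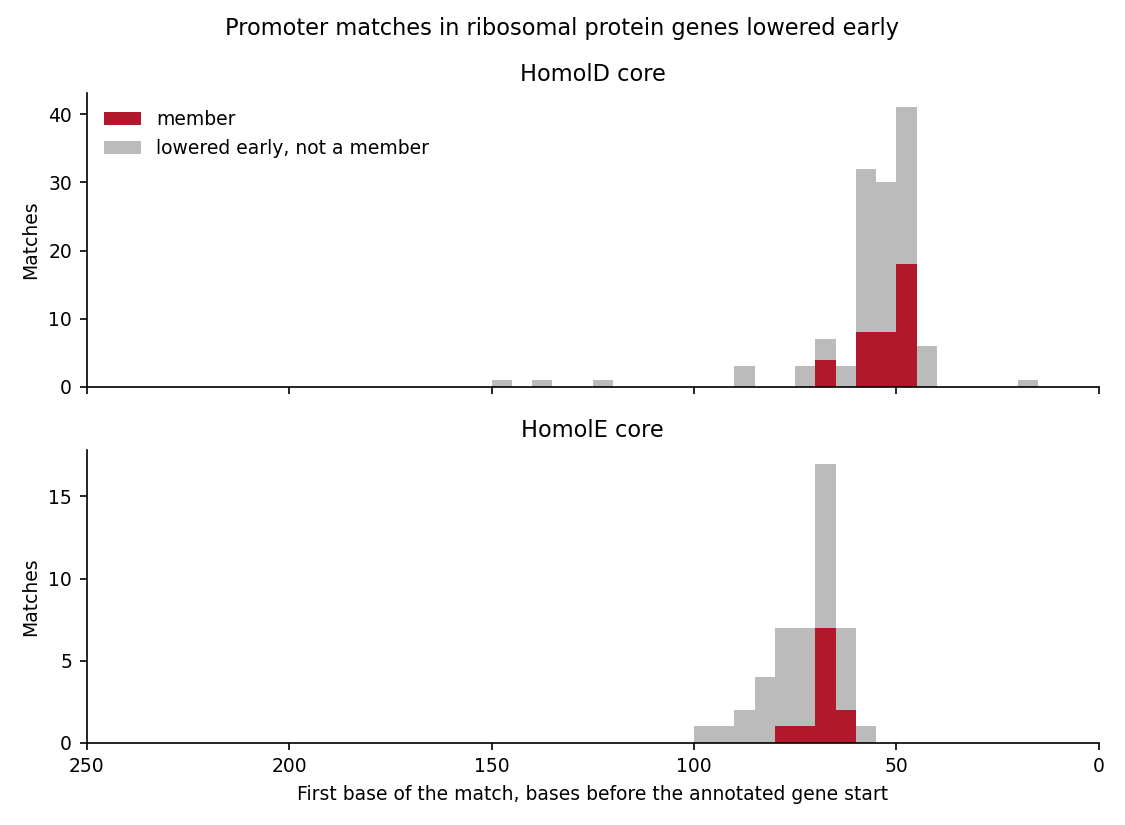
Number of matches (vertical axes, stacked bars) by the position of their first base in bases before the annotated gene start (horizontal axis) for the HomolD core (top) and the HomolE core (bottom) in the 132 ribosomal protein genes lowered early. Members are red, others grey. HomolD matches of members start 45 to 67 bases before the start (rpl39 has another at 68) and HomolE matches 63 to 75.

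Counts over whole pathways show which kinds of genes lowered early were in the group. Of 78 large subunit genes with a 0 h mean of at least 100, 76 were lowered early, 24 were members and 42 stayed at or under 0.5 of 0 h at 48 h. For 57 small subunit genes the counts were 56, 15 and 35. Of 131 ribosome assembly genes by product name, 84 were lowered early, of which 18 were members and 55 stayed low. The 9 assembly members outside that list were placed by their known role. RNA polymerase I and III subunits gave 14 lowered early of 30, with 5 members and 8 that stayed low. Translation factors gave 33 of 56 lowered early, with 1 member (tef102) and 30 that stayed low, and aminoacyl tRNA synthetases gave 13 of 35 with no member. The 6 genes listed for nascent chain and ribosome-associated factors were all lowered early and none was a member. tRNA modification genes gave 15 of 32 with 2 members, nucleotide synthesis genes 8 of 18 with 1, and amino acid synthesis genes 14 of 68 with 2. Lists of transporters, sterol and fatty acid synthesis, glycolysis, cell wall, heat shock and folding, and the mitochondrial ribosome gave 1 to 5 genes lowered early and no member. No histone or mitosis and cell cycle gene in the lists was lowered early. Over all 4792 protein-coding genes in this count, 575 were lowered early and 91 were members.

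Genes close to the limits of the rule show how continuous the group is. The members just inside the 48 h limit were pol5 (5621, 2443, 2249, 2535, 2821, 3484 and 3428) at 61.0%, rpl3202 at 61.0% and SPAC1B9.03c (5262, 1424, 1911, 2187, 2757, 2781 and 3212) at 61.0% of 0 h, and hgh1 at 59.99%, pno1 at 59.7% and SPAC4A8.14 at 59.7% fell just short. At the early limit utp11 (2200.1, 1031, 1096, 1201, 1508, 1504 and 1654) at 49.8% and rng3 at 49.7% were inside, and rpl4302 at 50.2%, dfr1 at 51.0% and imp3 at 51.4% were outside. By their 0 h mean the lowest members were SPAC959.06c at 260.2, rpr2 at 511 and lys7 at 624, and the next gene that otherwise met the rule was tlh2 at 57.7. Outside the members, the genes whose 7 log2 means were most like the median member profile were SPBC428.15 (an Obg-like ATPase), rps1902, rrp6 (a nuclear exosome ribonuclease), SPAC683.02c and pno1, with Pearson's r of 0.990 to 0.996 over 7 time points. Of these, SPBC428.15 was not under 56.4% of 0 h at 4 h or 8 h and rrp6 not under 59.2%, since r takes no account of depth.

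Overlapping annotations limit a few values. In the reference annotation 72 of 91 members (79.1%) overlap another gene on the other strand, 91.7% of protein-coding genes overlap another gene on either strand, and whether reads were counted by strand is not stated in the sources used here. Among members lying wholly opposite a longer protein-coding gene were rpl4101 (chl1), rpl3801 (SPBC577.03c), rps2802 (trs130), rpr2 (spc1) and rrp7 (pmh1), and pol5 and rng3 overlapped a partner over 93.7% (srr1) and 91.0% (SPCC613.03) of their length. The partner of rng3 had means of 2191, 1862, 1798, 1565, 1645, 1814 and 2375, so it too was higher at 48 h than at 24 h, by a smaller factor than rng3. The partner of pol5, which lies just inside the 48 h limit, had means of 1326, 376, 561, 691, 726, 695 and 713, or 42.3% of 0 h at 8 h and 53.8% at 48 h. The partner of rpl4101 had means of 1422, 1060.0, 879.9, 845, 817, 769 and 758, far under those of rpl4101. That of rpr2 had means of 1963, 1361, 1195, 1115, 1116, 933 and 1151, above those of rpr2 at every time. That of rrp7 was above rrp7 at 4 h (958 against 647). The part that reads of partners play in the members' values was not tested.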

How the data were processed

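The samples were 3 biological replicates at each of 7 time points of a single strain. According to the study's methods and the submitters' processing notes, stranded poly(A)+ libraries were sequenced in paired-end mode. HISAT2 2.1.0 aligned the reads to ASM294v2, SAMtools handled the alignments, and HTSeq 0.10.0 gave counts per gene from PomBase exon annotations. The deposited values used here are the authors' means of 3 libraries at each time, in counts normalised by DESeq2 size factors, a signal that is scaled to library size and not to gene length. The deposited tables also hold base means, log2 fold changes, standard errors, test statistics, p-values and adjusted p-values of the authors' comparisons with 0 h, which were not used. The study describes the large ribosomal RNAs of this strain as fragmented during starvation.

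The rule on the 0, 4, 8 and 48 h means was applied in Python 3.11.15 with pandas 2.3.3, NumPy 2.4.6 and SciPy 1.17.1. Members, gene lists and roles were chosen with earlier results of these data known. Genes described with their mean at every time were the 3 of each role with the most counts at 0 h, the 10 with the highest 48 h level, the 5 deepest, the 5 with the largest fold from 12 h to 36 h and any below 1, the 3 nearest each limit and the ribosomal protein members with their copies, and a few more were added after their values were seen (mdn1, rix7, rpc31, pop5, met1, cif1, SPBC1347.09, rps27 and the ribosomal protein members without a copy). Of 6988 IDs, 6836 matched the reference annotation (RefSeq, ASM294v3) by locus tag, 12 by synonym and 140 not at all, and lengths, introns and upstream sequences came from it.

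Each deposited mean carries enough digits for the whole reads of its 3 libraries to be searched, given the size factors. Of 16383 means from 20 to 1000, 97.4% had a single solution, and the search was tested on simulated data. A limma fit of the 12, 24 and 36 h libraries had been planned on condition that 90% of genes with a mean above 10 were solved at all 3 times. Means above 1000 were not searched, so genes with such means could not count as solved. Only 1846 of 6274 (29.4%) were solved, so no test was run and every comparison is a description. The rule's limits and the scaling were varied. The values of a few members enter the counts and are not reported here by gene.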

Additional observations from a re-analysis of the deposited data

How the results depend on the processing

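The number of members followed the limits of the rule. It was 91 as given, 155 with a 48 h limit of 0.5 (55 ribosomal protein genes), 32 with a limit of 0.8 (17 ribosomal protein genes) and 48 with an early limit of 0.4 (33 ribosomal protein genes). Moving the minimum 0 h mean to 10 or 1000 gave 92 and 88, recentring on the median protein-coding gene gave 106, and equal summed counts gave 82. Recentring kept 62 of the 91 members and equal sums kept 44. The planned limma fits between 12, 24 and 36 h, with their other pseudocounts, filters, scalings and left-out libraries, were not run because too few genes could be rebuilt as libraries. No paired analysis was possible because the deposited means carry no replicate numbers. What limits precision for members with means above 1000 is that their libraries were not searched for and the spread over them is not known.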
